A study of Homo sapiens with 8 samples.

Results

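Collagen chain genes, those whose symbol is COL followed by a type number, an A and a chain number, were described in IMR90 cells, a human lung fibroblast line. Of 54628 genes in the deposited table, 44 carry such a symbol, and 37 of these had at least 10 counts summed over the 8 libraries and form the members: 9 fibrillar chains, 6 basement membrane (type IV) chains, 7 FACIT chains and 15 others. All cells, controls included, carried hTERT, the telomerase subunit that keeps fibroblasts dividing, and a pinducer20 vector from which doxycycline switches on YAP5SA with a Flag tag at its N-terminus. YAP5SA is a form of the transcriptional coactivator YAP that the Hippo kinases cannot restrain. The 4 groups hold 2 libraries each: proliferating cells without drug, proliferating cells given doxycycline (1 ug/ml for 11 days), senescent cells taken 9 days after a 24 h exposure to 10 ug/ml bleomycin, a drug that breaks DNA, and senescent cells that also had the 11 days of doxycycline. Since 11 days is longer than the 24 h and 9 days together, doxycycline may have begun before bleomycin. Doxycycline in senescent cells here names a comparison of the final groups, whichever drug came first. No group had doxycycline without the transgene, so drug and transgene were compared together. Nothing in the labels says whether the line is a clone or the replicates are separate cultures, so p-values measure only the spread between these libraries.

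Collagen chains wind around each other into a long helix, and cells assemble the helices outside the cell into the scaffold of tissue. Fibrillar collagens form cables that bear load, type IV forms the mesh of basement membranes, FACIT collagens decorate the surface of fibrils, and the remaining types include the beaded filaments of type VI, the short-chain networks of types VIII and X, and collagens anchored in the cell membrane. Fibroblasts are the main source of types I, III, V and VI in connective tissue, and the collagen output of senescent cells and the response of matrix genes to YAP are long-standing topics in fibrosis.

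Total counts ran from 33627708 to 39692162 per library. The fibroblast label fits the marker list: the 8 fibroblast markers summed to 9587 to 9702 CPM (counts per 1e+06 counts on library sizes scaled with the TMM method) in proliferating libraries and to 7288 CPM or more in every other library. Epithelial markers summed to 3.41 CPM or less in every library, with 5 of 8 under 1 CPM throughout. The sum of the 8 endothelial markers lay at 72.1 to 73.7 CPM in proliferating libraries, at 52.0 to 57.1 with doxycycline, at 142 to 160.5 in senescent libraries and at 104 to 114 in senescent libraries with doxycycline. Leukocyte markers lay at 69.3 to 72.5, 52.8 to 55.7, 124 to 169.6 and 65.4 to 66 CPM in the same order, and the part of these lists in the collagen results was not tested. Counts on YAP1, endogenous and any transgene reads together, averaged 196 CPM in proliferating cells, 214 with doxycycline, 207 in senescent cells and 288 in those given doxycycline. ANKRD1, a widely used YAP target, averaged 3.38, 271, 83.1 and 836 CPM in that order. YAP1 counted 190 and 238 CPM in the proliferating libraries with doxycycline, on either side of the 198 and 195 in those without it. In a bulk measurement, fewer cells making a transcript and less of it per cell cannot be told apart.

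The share of counts on collagen transcripts was lower in every library with doxycycline than in every library without it. The 37 members took 3.15 and 3.13% of all counts in the proliferating libraries, and 1.85 and 2.14% in those with doxycycline. In senescent libraries they took 3.64 and 3.92%, and in senescent libraries with doxycycline 1.47 and 1.76%. The groups without doxycycline thus lay above both groups with it, and the senescent libraries stood highest without the drug and lowest with it. The class makeup moved as well. Fibrillar chains held 61.5 ± 0.253% of collagen counts in proliferating cells (SD, n = 2), 59.7 ± 1.62% with doxycycline, 52.2 ± 0.884% after bleomycin alone and 45.9 ± 2.56% after bleomycin with doxycycline. Type IV chains went the other way, from 4.69 ± 0.0285% to 8.05 ± 0.481% in proliferating cells and from 6.41 ± 0.149% to 13.5 ± 0.615% in senescent cells with doxycycline. As a share of all counts, however, type IV stood at 0.242 ± 0.0183% in senescent cells and 0.218 ± 0.0182% with doxycycline, with the 2 pairs of libraries overlapping. Fibrillar chains over the same pair of groups stood at 1.97 ± 0.137% and 0.744 ± 0.137%. FACIT chains held between 4.50 and 6.69% of collagen counts in any library. The other types held 26.9 ± 0.735% to 36.2 ± 1.58% as group means, highest in senescent cells without doxycycline.

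**Figure D1:**
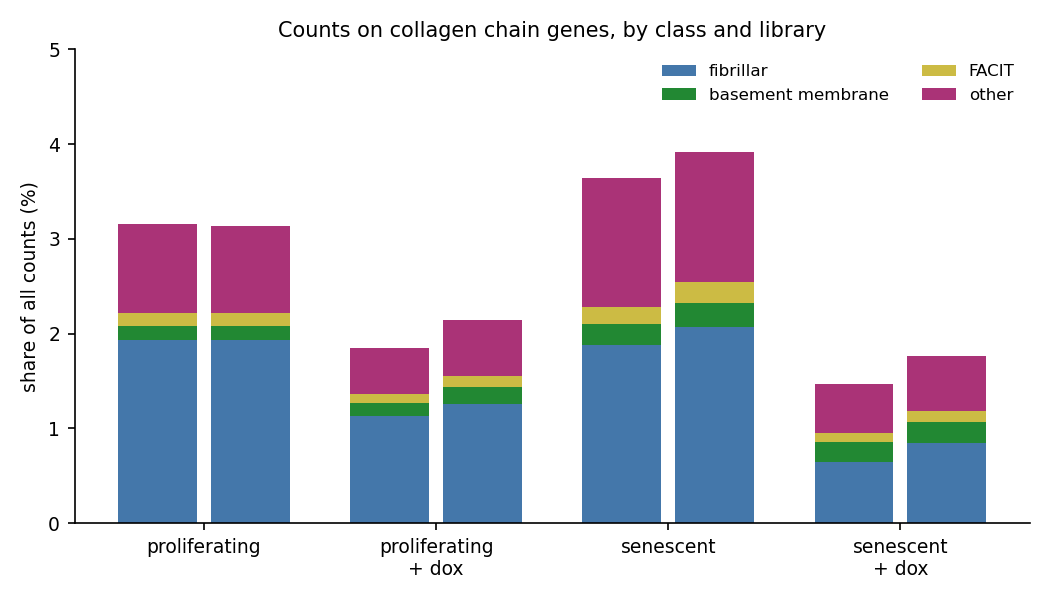
Share of all counts in percent taken by collagen chain genes in each of the 8 libraries (bars, in pairs by group), stacked by class: fibrillar, basement membrane, FACIT and other. The 4 libraries with doxycycline reach 1.47 to 2.14%, below the 4 without it at 3.13 to 3.92%.

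Of the 37 members, 29 passed the filter on low counts and were tested: all 9 fibrillar chains, 4 of 6 type IV chains, 3 of 7 FACIT chains and 13 of 15 others. Senescent against proliferating cells, without doxycycline, gave 20 members higher, where 29.8% of all 17155 tested genes were called higher, and 2 lower, where 29.4% were. The members' median log2 change was 0.71, against 0.01 over all genes, and scaling by total counts gave 17 higher and 6 lower. With doxycycline in both states, the same comparison gave 11 higher (26.8% of all genes) and 10 lower (28.7%) and a median of 0.14. Doxycycline in proliferating cells gave 2 members higher (12.6% of all genes) and 13 lower (10.4%), with a median of -0.39. Doxycycline in senescent cells gave 3 higher (22.6% of all genes) and 20 lower (23.8%), with a median of -1.10. The difference of the doxycycline effects, senescent minus proliferating, was called in 2 members in the higher direction (8.07% of all genes) and in 17 in the lower direction (11.8%), with a median of -0.76. Comparisons that use the same groups share libraries and are not independent of each other. Scaling by total counts alone moved the median of all genes by -0.18 for bleomycin without doxycycline, by 0.17 for doxycycline in senescent cells and by 0.18 for the difference. Under every alternative analysis that tested them, 14 of the 20 rises with bleomycin, 10 of the 13 falls with doxycycline in proliferating cells and 18 of the 20 in senescent cells were called again. The 17 negative differences became 11 without the first senescent library with doxycycline and 12 with total-count scaling, and the 2 positive ones became 0 without the first proliferating library.

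**Figure D2:**
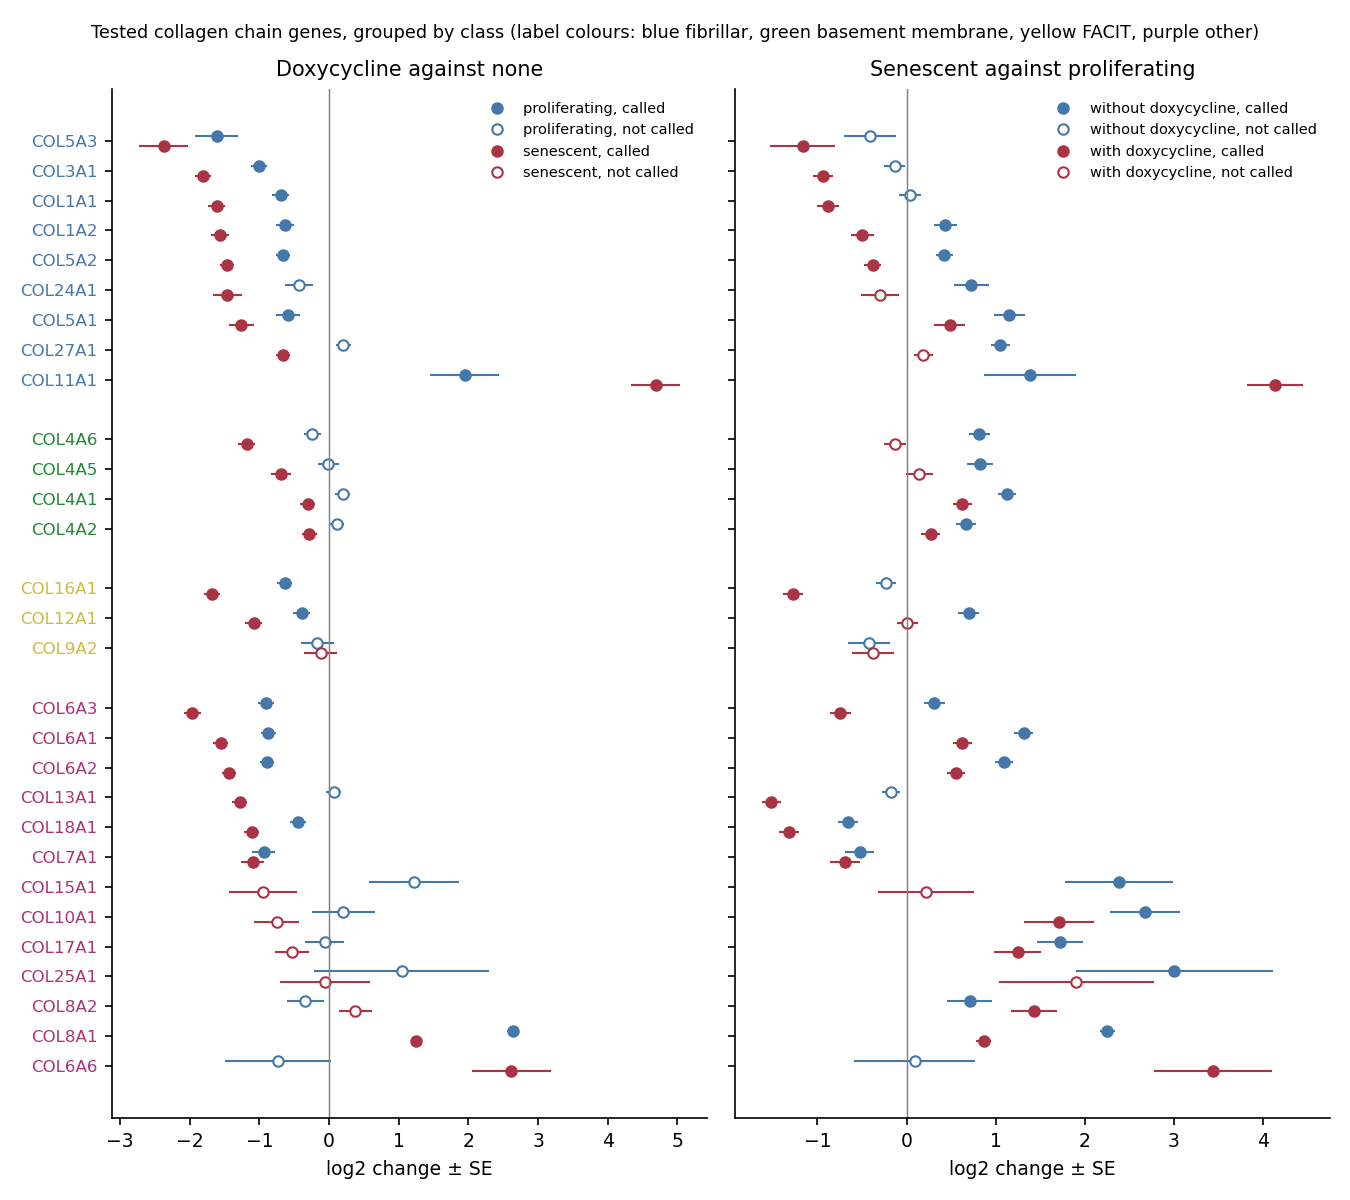
Log2 change ± SE of the 29 tested collagen chain genes, for doxycycline against none (left, proliferating blue and senescent red) and for senescent against proliferating (right, without doxycycline blue and with it red), with filled circles for calls at an adjusted p under 0.05. Most red circles on the left lie below 0 and further from it than the blue ones, while COL11A1, COL8A1 and, in senescent cells, COL6A6 lie above 0.

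Among fibrillar chains, types I, III and V fell with doxycycline in both states, COL27A1 and COL24A1 were called lower in senescent cells and not in proliferating cells, and COL11A1 rose. COL1A1 (chromosome 17, 50183289 to 50201632, hg38), the main chain of type I collagen, counted 11235 CPM in both proliferating libraries and 6541 and 7324 with doxycycline. It counted 11298 and 11729 CPM in the senescent libraries and 3247 and 4279 in senescent libraries with doxycycline. The senescent libraries exceeded the proliferating ones by little, and the drug separated the libraries of each state without overlap. The log2 change with bleomycin alone was 0.04 ± 0.12 (SE, adjusted p = 0.819), which became -0.14 when total counts set the scale. Doxycycline lowered COL1A1 by log2 -0.70 ± 0.12 in proliferating cells (adjusted p = 0.000635) and by -1.61 ± 0.12 in senescent cells (adjusted p = 5.80e-08), and the effects differed by -0.92 ± 0.17 (adjusted p = 0.00168). COL1A2 (chromosome 7, 94394561 to 94431232), its partner in the type I helix, counted 5031 and 4925 CPM in proliferating libraries, 3246 and 3188 with doxycycline, 6439 and 7020 in senescent libraries and 1888 and 2670 with both drugs. Unlike COL1A1 it was higher in senescent than in proliferating cells without doxycycline (log2 change 0.43 ± 0.13, adjusted p = 0.00942). This call was lost without the second proliferating or the second senescent library, at adjusted p of 0.0594 and 0.0687, and under total-count scaling. Its fall with doxycycline was -0.63 ± 0.13 and -1.56 ± 0.13 in the 2 states.

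COL3A1 (chromosome 2, 188974320 to 189012746), the chain of the thin fibrils found beside type I, counted 1088 and 1107 CPM in proliferating libraries and 526 and 565 with doxycycline. The senescent values were 920 and 1079 CPM without doxycycline and 248 and 320.2 with it. Each pair with the drug lay below the pair without it, and the 2 pairs without it lay side by side. The fall with doxycycline came to 2.01-fold in proliferating and 3.52-fold in senescent cells (log2 changes -1.01 ± 0.11 and -1.81 ± 0.11, adjusted p = 1.13e-05 and 9.70e-09), and the effects differed by -0.81 ± 0.16 (adjusted p = 0.00268). Type V chains start type I fibrils and limit their width. COL5A1 averaged 511 ± 8.06 CPM in proliferating and 1137 ± 116 in senescent cells (log2 change 1.15 ± 0.18, adjusted p = 0.000495), and COL5A2 808 ± 0.444 and 1083 ± 97.7 CPM (0.42 ± 0.10, adjusted p = 0.00150). In senescent cells doxycycline lowered COL5A1 to 475 ± 129 CPM (-1.26 ± 0.18) and COL5A2 to 393 ± 33.4 CPM (-1.46 ± 0.10). COL3A1 and COL5A2 are neighbours on chromosome 2 with their ends facing, 19.1 kb apart, and their changes with bleomycin alone were -0.13 ± 0.11 and 0.42 ± 0.10.

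**Figure D3:**
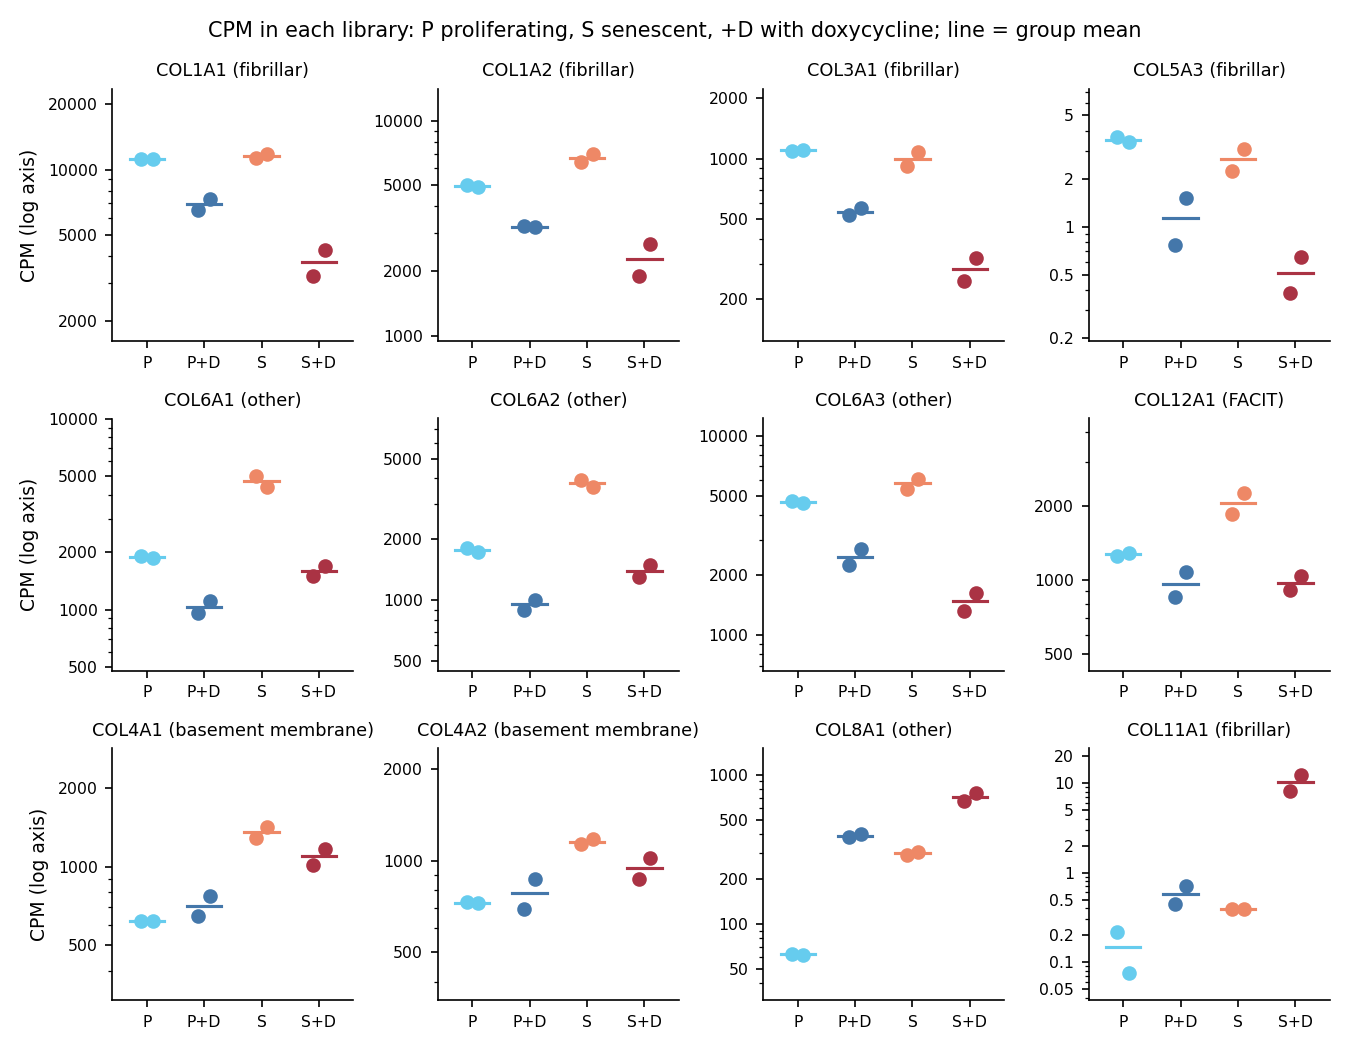
CPM on log axes in each library (points) with the group mean (line) for 12 collagen chain genes, in proliferating (P) and senescent (S) cells without and with doxycycline (+D). Libraries with doxycycline sit below those without it for types I, III and VI, while COL8A1 rises from 62.4 CPM on average to 389 in proliferating cells, and COL11A1 stands at 8.12 and 12.4 CPM in senescent libraries with doxycycline and under 1 CPM elsewhere.

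Rarer fibrillar chains held both extremes of the class. COL5A3 (chromosome 19, 9959561 to 10010471), another type V chain, counted 3.66 and 3.38 CPM in proliferating libraries, 0.765 and 1.5 with doxycycline, 2.24 and 3.07 in senescent libraries and 0.382 and 0.643 with both. Among the tested members it had the deepest fall with doxycycline in either state, by 3.06-fold in proliferating cells (log2 change -1.61 ± 0.31, adjusted p = 0.00122) and 5.18-fold in senescent cells (-2.37 ± 0.35, adjusted p = 4.39e-05). A non-coding gene on the opposite strand covers 4.37% of its exon length, and the strand setting of the counting is not given in the sources used here. COL11A1 (chromosome 1, 102876467 to 103108872), a chain of thin fibrils best known from cartilage, went the opposite way. It counted 0.220 and 0.0751 CPM in proliferating libraries, 0.441 and 0.704 with doxycycline, 0.392 and 0.395 in senescent libraries, and 8.12 and 12.4 in senescent libraries with doxycycline. Only that last pair passed 1 CPM. The rise with doxycycline in senescent cells was 25.8-fold (log2 change 4.69 ± 0.35, adjusted p = 2.56e-08), and with doxycycline present the senescent level exceeded the proliferating one 17.6-fold (4.13 ± 0.31, adjusted p = 2.44e-08). The rise in proliferating cells (1.94 ± 0.49, adjusted p = 0.00594) was lost without the second proliferating library or the second proliferating library with doxycycline (adjusted p = 0.0789 and 0.0653), and by limma-voom (adjusted p = 0.0697). The difference of the effects (2.74 ± 0.61, adjusted p = 0.00745) was lost without the first proliferating library (1.79, adjusted p = 0.306) and by limma-voom (adjusted p = 0.0583). The 8 chondrocyte markers summed to 62.3 to 65.4 CPM in senescent libraries with doxycycline, the lowest of the 4 groups, and CNMD among them was at 0 throughout. COL2A1, the cartilage fibril chain, had 8 counts in all and COL11A2 had 0.

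COL27A1 and COL24A1, fibrillar chains with altered helices, rose with bleomycin alone by log2 1.05 ± 0.11 (adjusted p = 4.80e-07) and 0.73 ± 0.20 (adjusted p = 0.00518). The COL24A1 call was lost without the second proliferating library (adjusted p = 0.0503) or the second senescent one (adjusted p = 0.0893). COL27A1 averaged 30.4 ± 0.282 CPM in proliferating and 63 ± 0.402 in senescent cells. Doxycycline lowered it in senescent cells to 39.9 ± 3.17 CPM (-0.66 ± 0.11, adjusted p = 0.000110), whereas in proliferating cells its change was 0.20 ± 0.11 (adjusted p = 0.198), and the effects differed by -0.86 ± 0.15 (adjusted p = 0.000953). By class, 8 of 9 fibrillar chains were lower with doxycycline in senescent cells, where 23.8% of all genes were, and 6 of 9 in proliferating cells, where 10.4% were, with median changes of -1.46 and -0.63. The 6 include COL5A1 (-0.59 ± 0.18, adjusted p = 0.0443), whose call was lost with total-count scaling (adjusted p = 0.0720), by limma-voom (adjusted p = 0.0732) and without any 1 of 6 libraries, namely either library of proliferating cells, of proliferating cells with doxycycline or of senescent cells (adjusted p from 0.0856 to 0.316).

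By median log2 change the type IV chains were the class that doxycycline moved least (0.05 in proliferating and -0.50 in senescent cells). In senescent cells all 4 tested chains were still called lower, where 23.8% of all genes were. COL18A1 and COL15A1, chains with an endostatin end, are counted with the other types and changed by -1.11 and -0.95 in senescent cells. The order of type IV and the other types in senescent cells depends on this placement. COL4A1 and COL4A2 (chromosome 13, 110148963 to 110307233 and 110305812 to 110513209) encode the pair that makes up most type IV collagen, and they are transcribed away from each other from starts 127 bases apart in RefSeq (GRCh38.p14). The sequence between the starts is shown because both genes share it as their promoter, on the strand of COL4A2, with the CCAAT word (searched as CCAAT and ATTGG) in capitals at chr13:110307158-110307283. The same word was present in 32.0% of 35116 RefSeq windows that reach 250 bases before a gene's start. Those windows are longer than the 126 bases shown here, so the share is not a matched background.
COL4A1-COL4A2: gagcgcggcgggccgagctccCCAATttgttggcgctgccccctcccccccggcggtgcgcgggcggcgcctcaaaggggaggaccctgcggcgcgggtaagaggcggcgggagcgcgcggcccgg

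COL4A1 counted 619 CPM in both proliferating libraries, 646 and 770 with doxycycline, 1288 and 1418 in senescent libraries and 1015 and 1171 in senescent libraries with doxycycline. COL4A2 counted 730.4 and 727 CPM, 696 and 875, 1137 and 1176, and 873 and 1023 in the same order. For both, every senescent library lay above every proliferating library that had no doxycycline, but a proliferating library with doxycycline reached 875 CPM of COL4A2, past the lower senescent library with it. Bleomycin alone raised COL4A1 2.19-fold (log2 change 1.13 ± 0.10, adjusted p = 1.76e-07) and COL4A2 1.59-fold (0.67 ± 0.11, adjusted p = 7.68e-05). Doxycycline changed them by 0.19 ± 0.10 and 0.11 ± 0.11 in proliferating cells (adjusted p = 0.205 and 0.528). In senescent cells the changes were -0.31 ± 0.10 and -0.29 ± 0.11 (adjusted p = 0.0237 and 0.0421), and neither call held with total-count scaling (adjusted p = 0.255 and 0.366). The COL4A1 call was also lost without the second senescent library (adjusted p = 0.138) or the first senescent library with doxycycline (adjusted p = 0.236), and that of COL4A2 without any 1 of 5 libraries, with adjusted p from 0.0602 to 0.346. An antisense gene, COL4A2-AS1, covers 0.62% of the exon length of COL4A2 and averaged 39.0, 44.7, 64.9 and 44.8 CPM over the groups.

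COL4A5 and COL4A6, a second head-to-head pair on the X chromosome with starts 380 bases apart, encode chains of specialised basement membranes. COL4A5 counted 65.4 and 66.5 CPM in proliferating libraries, 60.3 and 70.6 with doxycycline, 100.2 and 134 in senescent libraries and 64.2 and 80.5 with both. The pair of senescent libraries without doxycycline stood above all 6 others. With bleomycin alone COL4A5 and COL4A6 rose by log2 0.83 ± 0.15 (adjusted p = 0.000890) and 0.82 ± 0.12 (adjusted p = 2.18e-05), and with doxycycline in senescent cells they fell by -0.69 ± 0.15 (adjusted p = 0.00390) and -1.18 ± 0.12 (adjusted p = 1.27e-06). A further such pair, COL4A3 and COL4A4 on chromosome 2, which kidney and lung basement membranes use, had 36 and 38 counts in all and did not pass the filter. In proliferating cells doxycycline changed none of the 4 tested type IV chains past the threshold, with changes from -0.24 to 0.19 and 12.6 and 10.4% of all genes called higher and lower.

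Among FACIT chains, COL12A1 and COL16A1 were lowered by doxycycline in both states. COL12A1 (chromosome 6, 75084326 to 75206051) encodes the chain that coats type I fibrils in dense tissue. It counted 1257 and 1283 CPM in proliferating libraries, 856 and 1076 with doxycycline, 1859 and 2264 in senescent libraries, and 910 and 1034 in senescent libraries with doxycycline. Senescent cells thus had the highest level of the 4 groups without the drug, and with it lay between the 2 proliferating libraries given the drug. Bleomycin alone raised it 1.62-fold (0.70 ± 0.12, adjusted p = 0.000130), and doxycycline in senescent cells lowered it 2.12-fold (-1.09 ± 0.12, adjusted p = 3.62e-06). The smaller fall in proliferating cells was -0.39 ± 0.12 (adjusted p = 0.0267). It was lost without either proliferating library (-0.41 and -0.38) or the first proliferating library with doxycycline (-0.23). A replicate block by description number lost it too (-0.29, adjusted p = 0.137). The difference of the effects was -0.69 ± 0.17 (adjusted p = 0.01). It was lost with total-count scaling (-0.52, adjusted p = 0.0575) and without the first senescent library with doxycycline (-0.59). COL16A1 (chromosome 1, 31652247 to 31704319), a FACIT-like chain of fibrils and fibrillin networks, counted 112 and 105 CPM in proliferating libraries, 63.3 and 76.3 with doxycycline, 86.0 and 99.4 in senescent libraries and 26.3 and 31.6 with both. It was lower in each group with doxycycline than in its control, by 1.56-fold in proliferating (-0.64 ± 0.11, adjusted p = 0.000559) and 3.20-fold in senescent cells (-1.68 ± 0.11, adjusted p = 2.43e-08). COL9A2, a cartilage FACIT chain, counted 3.76 and 3.38 CPM in proliferating libraries and 3.21 and 3.15 with doxycycline. In senescent libraries it counted 3.16 and 2.16 CPM, and 2.95 and 1.93 in those with doxycycline. It passed the threshold in none of the 5 comparisons, with log2 changes from -0.42 to 0.04 and SE of 0.23 to 0.34.

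GGAATG, the core word of sites bound by the TEAD factors through which YAP acts, was searched together with its reverse complement CATTCC in the 250 bases before RefSeq starts (GRCh38.p14). Windows were matched for 27 of the 37 members. COL1A1, COL1A2, COL3A1, COL5A2, COL6A1, COL6A5, COL8A1, COL9A3, COL14A1 and COL20A1 had none and were not searched. Of the 35 windows of the matched members 2 held the word, in COL12A1 and COL10A1, and 11.9% of 35116 windows over all genes did. The window of COL12A1, which fell, and that of COL11A1, the member that rose most with doxycycline in senescent cells, are shown on the strand of the gene, with the word in capitals. They lie at chr6:75206054-75206303 and chr1:103108523-103108772 on the minus strand. In COL12A1 the word starts 167 bases before the start site, and in COL11A1 it was not present in this window.
COL12A1: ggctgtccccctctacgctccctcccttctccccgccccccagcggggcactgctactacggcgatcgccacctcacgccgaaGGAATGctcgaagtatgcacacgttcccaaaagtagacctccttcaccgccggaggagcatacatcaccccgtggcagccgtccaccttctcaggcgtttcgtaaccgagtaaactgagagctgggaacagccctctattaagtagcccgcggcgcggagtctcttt
COL11A1: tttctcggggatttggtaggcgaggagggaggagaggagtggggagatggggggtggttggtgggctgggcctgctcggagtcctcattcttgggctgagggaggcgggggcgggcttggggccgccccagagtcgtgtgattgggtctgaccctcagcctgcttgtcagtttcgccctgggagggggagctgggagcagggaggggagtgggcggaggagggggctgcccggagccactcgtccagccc

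Type VI chains, which form beaded filaments around cells and attach them to the matrix, made up most of the counts of the remaining types. COL6A1 and COL6A2 lie on chromosome 21 (45981737 to 46005050 and 46098097 to 46132849), 93.0 kb apart in the same direction, and COL6A3 on chromosome 2 (237324003 to 237414375). COL6A1 counted 1917 and 1868 CPM in proliferating libraries, 956 and 1114 with doxycycline, 5027 and 4379 in senescent libraries and 1502 and 1691 with both. COL6A2 counted 1807 and 1740, 900.4 and 1009, 3944 and 3613, and 1298 and 1502 CPM in the same order. COL6A3, the long chain of the same molecule, counted 4685 and 4568, 2247 and 2696, 5410.0 and 6090.3, and 1323 and 1628 CPM. The 3 genes were alike in their order for the drug but not for the state: senescent libraries with doxycycline lay above proliferating ones with it for COL6A1 and COL6A2, and below them for COL6A3. Bleomycin with doxycycline in both states accordingly gave 0.63 ± 0.11 for COL6A1 (adjusted p = 0.000129), 0.55 ± 0.10 for COL6A2 (adjusted p = 0.000250) and -0.74 ± 0.12 for COL6A3 (adjusted p = 7.04e-05). Bleomycin alone raised COL6A1 2.48-fold and COL6A2 2.13-fold (1.31 ± 0.11 and 1.09 ± 0.10, adjusted p = 4.38e-08 and 1.92e-07). COL6A3 rose 1.24-fold (0.31 ± 0.12, adjusted p = 0.0322), a call lost with total-count scaling (adjusted p = 0.300), without either proliferating library (adjusted p = 0.108 and 0.152) and without the second senescent library (adjusted p = 0.196). Doxycycline lowered the 3 by -0.87 to -0.90 in proliferating cells and by -1.43 to -1.96 in senescent cells, where COL6A3 fell most (-1.96 ± 0.12, adjusted p = 5.56e-09). The state difference of the drug effect was -1.06 ± 0.17 for COL6A3 (adjusted p = 0.000457).

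COL8A1 (chromosome 3, 99638475 to 99799226), a chain of the short-chain network made by vascular and corneal cells, rose in all 4 comparisons of groups. It counted 63.1 and 61.6 CPM in proliferating libraries, 379.7 and 399 with doxycycline, 290.4 and 304 in senescent libraries and 666 and 754 with both. No 2 groups overlapped, and the order ran from proliferating through senescent and proliferating with doxycycline to senescent with doxycycline. Doxycycline raised it 6.24-fold in proliferating cells (2.64 ± 0.09, adjusted p = 1.01e-11) and 2.39-fold in senescent cells (1.25 ± 0.08, adjusted p = 1.52e-08), and bleomycin alone raised it 4.77-fold (2.25 ± 0.09, adjusted p = 8.35e-12). The 2 agents together gave less than the sum of their log2 effects: the difference of the doxycycline effects was -1.39 ± 0.12 (adjusted p = 2.17e-06), the largest negative one among the called members. COL8A2, its partner chain, averaged 1.22 ± 0.135, 0.960 ± 0.152, 2 ± 0.296 and 2.61 ± 0.229 CPM and passed no threshold for doxycycline (-0.34 ± 0.27 and 0.38 ± 0.24, adjusted p = 0.399 and 0.217). COL10A1, a relative with a similar short chain known from growth plates, rose 6.38-fold with bleomycin alone (2.67 ± 0.39, adjusted p = 1.71e-05) to 1.91 ± 0.0335 CPM.

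Chains that span the cell membrane or carry an endostatin end (multiplexins) fell or were rare. COL13A1 (chromosome 10, 69801867 to 69964275), a membrane collagen of adhesion sites, counted 52.9 and 49.4 CPM in proliferating libraries, 52.3 and 54.6 with doxycycline, 49.9 and 40.8 in senescent libraries and 17.2 and 20.2 with both. Only the senescent libraries with doxycycline stood apart from the rest. The drug effect was 0.06 ± 0.10 in proliferating cells (adjusted p = 0.710) and -1.28 ± 0.11 in senescent cells (adjusted p = 1.53e-07), and the difference was -1.35 ± 0.15 (adjusted p = 2.13e-05). With doxycycline in both states COL13A1 had the largest called fall with bleomycin, 2.87-fold (-1.52 ± 0.11, adjusted p = 1.06e-08). COL18A1 (chromosome 21, 45405137 to 45513720), the multiplexin of basement membranes, counted 369 and 364 CPM in proliferating libraries, 240.3 and 297 with doxycycline, 226 and 239 in senescent libraries and 96.0 and 119 with both. It had the largest called fall with bleomycin alone, 1.58-fold (-0.66 ± 0.11, adjusted p = 0.000113), and a further 2.16-fold fall with doxycycline in senescent cells (-1.11 ± 0.11, adjusted p = 1.54e-06). SLC19A1 on the opposite strand covers 20.5% of its exon length and averaged 152, 116, 76.0 and 47.5 CPM over the groups, so the COL18A1 value is uncertain while the strand setting is not known. COL7A1, the anchoring fibril chain beneath epithelia, averaged 121 ± 7.92 CPM in proliferating cells and fell with doxycycline in both states (-0.94 ± 0.16 and -1.10 ± 0.17, adjusted p = 0.00410 and 0.000867). The 2 falls of COL7A1 were close, differing by -0.16 ± 0.23 (adjusted p = 0.683).

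Several rare chains moved by large factors on few counts. COL17A1, the hemidesmosome collagen of epithelia, and COL15A1, a multiplexin, rose with bleomycin alone by 1.72 ± 0.26 (adjusted p = 3.42e-05) and 2.39 ± 0.61 (adjusted p = 0.00172), to 3.06 ± 0.111 and 0.597 ± 0.0272 CPM. COL25A1, a membrane collagen of neurons and muscle, counted 0 and 0.0751 CPM in proliferating libraries, 0.0882 and 0.0728 with doxycycline, 0.224 and 0.425 in senescent libraries and 0.204 and 0.419 with both. Proliferating cells had 3 counts and senescent cells 22, a ratio of 8.65 with a 95% exact interval of 2.60 to 45.1 for counting error only. This is the largest fitted rise with bleomycin alone (3.01 ± 1.11, adjusted p = 0.00981), and it was lost without the first proliferating library (adjusted p = 0.102) or the second senescent one (adjusted p = 0.0907). COL6A6, a rarer type VI chain, counted 0.122 and 0.150 CPM in proliferating libraries, 0.118 and 0.0485 with doxycycline, 0.196 and 0.0912 in senescent libraries and 0.891 and 0.923 with both. Its rise was thus seen with the 2 agents together, by 6.12-fold over senescent cells (2.61 ± 0.57, adjusted p = 0.000737). The difference of its drug effects was the largest positive one (3.35 ± 0.95, adjusted p = 0.0172), and it was lost without any 1 of 5 libraries, with adjusted p from 0.0508 to 0.0898. COL20A1, an untested FACIT chain, had 0 counts in 6 libraries and 14 in the senescent libraries with doxycycline, at least 4.27-fold higher than senescent cells without it when 3 counts over the group are taken as the floor. The remaining untested members, COL14A1, COL9A3, COL21A1, COL28A1 and COL6A5, stayed under 0.5 CPM in every library, and COL22A1, COL9A1, COL19A1, COL26A1 and COL23A1 had fewer than 10 counts in all.

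Set side by side, the classes differed in how far doxycycline moved them, as medians of log2 change with no test between classes. In senescent cells the median was -1.46 for 9 fibrillar chains, -1.09 for 3 FACIT chains, -0.95 for 13 others and -0.50 for 4 type IV chains. In proliferating cells it was -0.63, -0.39, -0.34 and 0.05 in that order. COL18A1 and COL15A1 are among the 13 others, and the order of the others and type IV in senescent cells depends on this placement. With bleomycin alone the order changed, to 0.43, -0.23, 1.09 and 0.82, with all 4 type IV chains and 9 of 13 others called higher, 6 of 9 fibrillar chains and 1 of 3 FACIT chains, where 29.8% of all genes were. The FACIT share is near that of all genes. The rises of the fibrillar chains COL1A2, COL24A1 and COL11A1 and of the others COL6A3, COL8A2 and COL25A1 were lost under some alternative analysis. Those of the tested type IV chains and of COL12A1 held under every one. Per kilobase of transcript, COL1A1 and COL1A2 ranked first and second in all 4 groups. COL8A1 moved from rank 16 in proliferating cells to rank 11 with doxycycline, 12 in senescent cells and 8 with both, whereas COL3A1 moved from rank 6 to 8, 7 and 12, and COL4A1 from 10 to 7, 6 and 5.

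Ratios between chains that assemble into the same molecule separated the libraries by state, and not by drug, in 5 of 7 pairs. Ratios were taken between counts per kilobase of the longest coding transcript in GENCODE 29, which sets their absolute size but not their changes. The COL1A1 to COL1A2 ratio, which is fixed in the type I helix, was 1.80 and 1.83 in proliferating libraries, 1.62 and 1.85 with doxycycline, 1.41 and 1.34 in senescent libraries and 1.38 and 1.29 with both. All 4 senescent libraries lay below all 4 proliferating ones, with or without the drug. The same split by state held for COL6A3 to COL6A1, at 0.927 to 0.964 in the proliferating state and 0.347 to 0.548 in the senescent state. In the other direction it held for COL5A1 to COL5A2 (0.523 to 0.577 against 0.869 to 1.14), for COL4A1 to COL4A2 (0.832 to 0.911 against 1.11 to 1.18) and for COL6A1 to COL6A2 (0.866 to 0.902 against 0.920 to 1.04). Sorted by drug instead, the libraries overlapped in each of these 5 ratios. COL8A1 to COL8A2 was an exception, at 39.2 to 139 without doxycycline and 223 to 364 with it, as was COL4A5 to COL4A6, at 5.65 to 6.75 against 7.21 to 10.4. COL3A1 to COL1A1, from different molecules, also split by drug, at 0.0988 to 0.120 without it and 0.0908 to 0.0976 with it. Within senescent cells COL6A3 to COL6A1 was lower with doxycycline as well, at 0.347 and 0.379 against 0.424 and 0.548. So was COL6A1 to COL6A2, at 0.945 and 0.920 against 1.04 and 0.990, and COL6A1 enters both of these ratios. Within proliferating cells COL4A1 to COL4A2 was higher with doxycycline, at 0.911 and 0.864 against 0.832 and 0.836. There COL6A3 to COL6A1 was lower with it, at 0.927 and 0.954 against 0.963 and 0.964. The ratios were chosen for chains of a common molecule, the split was noticed in these libraries and no test was made of it.

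**Figure D4:**
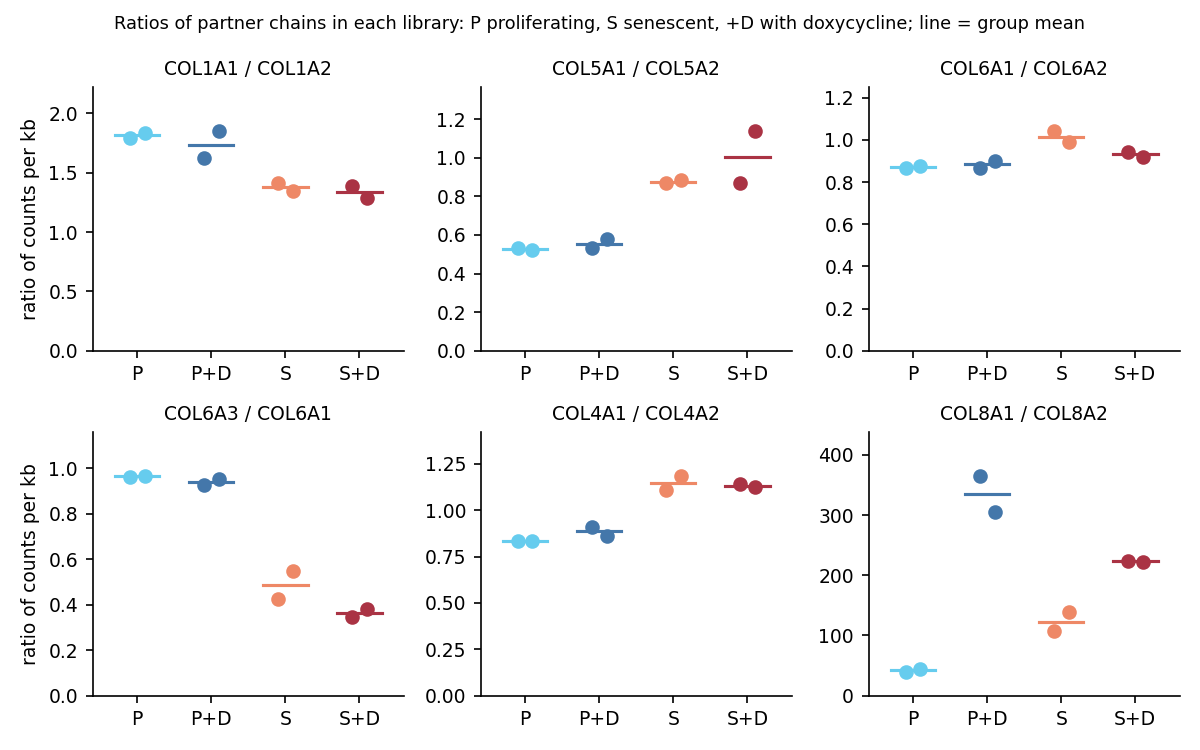
Ratio of counts per kilobase between partner chains in each library (points) with the group mean (line), for 6 pairs in proliferating (P) and senescent (S) cells without and with doxycycline (+D). For the first 5 pairs the libraries of the 2 states do not overlap, but for COL6A1 over COL6A2 the gap is narrow, from 0.902 to 0.920. COL8A1 over COL8A2 is highest in proliferating cells with doxycycline, at 364 and 306.

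Genes that process collagen, act as its receptors or break it down were read from 5 lists with 58 genes, of which 50 were tested. For bleomycin without doxycycline, 8 of 14 hydroxylation and glycosylation genes rose and 2 fell. P4HA2, a prolyl hydroxylase subunit, and PLOD2, a lysyl hydroxylase, rose by log2 2.56 and 2.11, and the galactosyltransferases COLGALT2 and COLGALT1 fell by 1.55 and 0.25. In the folding and export list 6 of 10 rose and 2 fell, with FKBP14 and FKBP10, prolyl isomerases, at 1.29 and 0.77, and TMEM38B, an ion channel of the endoplasmic reticulum, and SERPINH1, the collagen chaperone, at -0.71 and -0.39. Of 11 genes for propeptide removal and cross-linking 6 rose and 3 fell, with the cross-linking oxidases LOX and LOXL4 at 2.28 and 1.85, the protease enhancer PCOLCE at -1.12 and LOXL1 at -0.77. Receptors gave 4 of 7 higher and 1 lower, with the integrin chains ITGA11 at 2.12, ITGB1 at 1.52 and ITGA10 at -1.58. Breakdown genes gave 7 of 8 higher and 1 lower, with the collagenase MMP1 at 3.01 and the peptidase PEPD at -0.80. MMP8, another collagenase, had 0 counts in both proliferating libraries and averaged 0.413 CPM in senescent ones. Background shares of 29.8% higher and 29.4% lower apply to each of these counts.

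Doxycycline in senescent cells turned most of these lists downward. Of hydroxylation and glycosylation genes 2 rose and 10 of 14 fell, with the prolyl 3-hydroxylases P3H2 and P3H3 at -1.56 and -0.93 and with COLGALT2 and PLOD2 higher by 2.66 and 0.51. In folding and export 1 rose and 6 of 10 fell, with SERPINH1 at -0.84, CREB3L1, a transcription factor of the secretory pathway, at -0.83 and TMEM38B at 0.39. For propeptide removal and cross-linking 3 rose and 6 of 11 fell, with the propeptidases ADAMTS14 and ADAMTS2 at -2.07 and -1.37, the tolloid protease TLL2 at 2.21 and LOX at 0.76. No receptor rose and 5 of 7 fell, with ITGA11 and ITGA1 at -2.10 and -1.48, and no breakdown gene rose and 6 of 8 fell, with the protease CTSK at -2.14 and MMP1 at -1.71. Of all genes 22.6% were called higher and 23.8% lower in this comparison. In proliferating cells the drug gave, in the same order of lists, 2, 1, 2, 0 and 2 rises and 4, 2, 6, 3 and 3 falls, among them P3H2 at -1.01, PCOLCE at -0.73, ITGA1 at -1.06 and MMP2, a gelatinase, at -0.70, beside COLGALT2 at 1.64, LOXL4 at 1.80 and MMP1 at 0.84. Of all genes 12.6% were called higher and 10.4% lower here, so several of these counts, such as 2 of 14 and 1 of 10 rises, are near the background. MMP1 was thus called higher with doxycycline in proliferating cells and lower in senescent cells, and the difference of its effects was -2.56. MMP1 did not hold the extremes of its list. Over all tested breakdown genes, called or not, changes reached 3.17 with doxycycline in proliferating cells and -3.60 for the difference.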

How the data were processed

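The deposited values are raw read counts per gene in 8 libraries. Per the labels' protocols, RNA was isolated with acid phenol and sequenced as stranded mRNA libraries (NovaSeq). The hg38 build and the tools HISAT2 2.1.0, featureCounts 1.6.3 and Trimmomatic 0.36 are listed in the submitters' processing notes. Which annotation and strand setting were used is not given in the sources used here.

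Libraries were grouped by their labelled treatment. Genes passing filterByExpr (17155 of 54628) were fitted after TMM scaling with edgeR 4.0.16 (robust quasi-likelihood, 4 groups, R 4.3.3). The 5 contrasts were tested two-sided, with Benjamini-Hochberg adjustment over all tested genes and a threshold of 0.05. The common biological coefficient of variation was 0.0904. Groups shared a dispersion per gene, though their spread was unequal. The chi-square per degree of freedom between the 2 libraries of a group was 3.46 in proliferating cells and 18.0 in those with doxycycline. It was 14.6 in senescent cells and 12.1 in those with doxycycline. Log2 changes and SE are those of the fit. Levels are CPM on TMM-scaled library sizes. Collagen positions and transcript lengths come from GENCODE 29, promoter windows from RefSeq (GRCh38.p14). On simulated counts of 16702 genes, 98% of log2 changes of 1 and 100% of those of 2 were recovered, with 3.41% false calls. The simulation changed 100 genes of each size, in the senescent group only. All changed genes lay above 1 CPM on average, and every gene had the same dispersion. These rates therefore do not cover the rarer members, or data in which many genes change and groups differ in spread.

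The members and the gene lists were chosen with earlier results of these data known. Values in every library are given for the 3 members of each class with the most counts and, for each contrast, the called member with the largest rise and the largest fall. Other members are named with group means, log2 changes or counts, and listed genes by the 2 largest called changes in each direction. For doxycycline in proliferating cells only some of the listed genes are named. Alternatives were DESeq2 1.42.0 and its size factors, total counts, limma-voom (limma 3.58.1), only the libraries compared, no filter on low counts, a minimum mean log2 CPM of 1, replicate blocks and each library left out. Figures used matplotlib 3.10.9.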

Additional observations from a re-analysis of the deposited data

Results flagged for a closer look

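The doxycycline effect differed between senescent and proliferating cells in 19 of the 29 tested collagen chain genes, by the interaction term of edgeR's quasi-likelihood test at an adjusted p under 0.05. In 17 the difference, senescent minus proliferating, was negative, as in 11.8% of all genes. By log2 difference these were the network and membrane chains COL8A1 (-1.39) and COL13A1 (-1.35), the fibrillar chains COL24A1 (-1.03), COL1A2 (-0.93), COL1A1 (-0.92), COL27A1 (-0.86), COL3A1 (-0.81) and COL5A2 (-0.80), and the FACIT chains COL16A1 (-1.04) and COL12A1 (-0.69). Type VI chains followed at -1.06 for COL6A3, -0.69 for COL6A1 and -0.54 for COL6A2, with type IV chains at -0.94 for COL4A6, -0.68 for COL4A5 and -0.50 for COL4A1, and the multiplexin COL18A1 at -0.67. In COL8A1 the negative value stands for a smaller rise, and in COL13A1, COL27A1, COL24A1 and the type IV chains the fall was called in senescent cells only. The difference was positive in COL11A1 (2.74) and COL6A6 (3.35), and in 8.07% of all genes. Scaling by total counts ended the calls of COL24A1, COL4A1, COL4A5, COL12A1 and COL6A2. Leaving out 1 library also ended some of the 19 calls. Without the first senescent library with doxycycline the adjusted p became 0.0705 for COL12A1, 0.06 for COL18A1 and 0.0876 for COL6A2, and COL6A2 also missed the threshold without either proliferating library (0.0547 and 0.085). COL11A1 missed it without the first proliferating library (0.306). COL24A1, COL4A1 and COL6A6 missed it without any 1 of 5 libraries (highest adjusted p 0.114, 0.136 and 0.0898), and COL4A5 without any 1 of 6 (highest 0.219).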

How the results depend on the processing

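Over 2396 recomputed gene values, 2220 kept their direction and side of the threshold, 110 lost the call, 30 gained it and 36 changed sign, all of them called in neither analysis. Counts of called members moved by more than 1.5 times as follows. Members lower with bleomycin alone numbered 2, and 6 with total counts. Members higher with bleomycin beside doxycycline numbered 11, and 7 under a minimum mean log2 CPM of 1. Members higher with doxycycline in proliferating cells numbered 2, and 1 by limma-voom. Positive differences of the doxycycline effects numbered 2, and 1 by DESeq2, limma-voom, that minimum and the description-number block.

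With 1 library left out in turn, the counts ranged over 15 to 20 higher and 1 to 3 lower for bleomycin alone, 9 to 11 and 7 to 10 for bleomycin with doxycycline, 1 to 4 and 10 to 13 for doxycycline in proliferating cells, 3 and 18 to 21 in senescent cells, and 0 to 2 and 11 to 18 for the difference. The lone library of a group is then assumed to vary like the others. The count of 11 came without the first senescent library with doxycycline, and the count of 0 without the first proliferating library.

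Residuals of same-numbered libraries correlated at -0.0121 to 0.159. Values with the proliferating libraries without doxycycline were -0.0121 to -0.0042, and those among the other groups were 0.159, 0.0402 and 0.0131. With 2 libraries a group the residuals of a group mirror each other, so these values cannot tell whether the numbers pair libraries. A replicate block by title number lost 0 gene calls and gained 4, and one by description number lost 5 and gained 3. The 5 include the difference of the effects in COL11A1 (1.55, adjusted p = 0.338).

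Signs changed with total counts in COL1A1 and COL6A6 for bleomycin alone (-0.14 and -0.082), COL25A1 and COL9A2 for doxycycline in senescent cells (0.10 and 0.052) and COL7A1 for the difference (0.013). They changed with the description-number block in COL17A1 and COL4A5 for doxycycline in proliferating cells (0.12 and 0.13) and COL6A6 for bleomycin alone (-0.25), and without a filter in COL12A1 for bleomycin with doxycycline (-0.021). With 1 library left out the log2 change ran from -0.56 to 0.52 for COL6A6 with bleomycin alone. For bleomycin with doxycycline it ran from -0.036 to 0.31 in COL4A5, -0.26 to 0.0040 in COL4A6, -0.16 to 0.17 in COL12A1 and -0.21 to 0.57 in COL15A1. For doxycycline in proliferating cells it ran from -0.066 to 0.27 in COL4A2, -0.13 to 0.10 in COL4A5, -0.29 to 0.19 in COL17A1 and -0.33 to 0.76 in COL10A1. In senescent cells it ran from -0.46 to 0.17 in COL9A2 and -0.66 to 0.45 in COL25A1, and for the difference from -0.29 to 0.34 in COL9A2 and -0.37 to 0.066 in COL7A1. The cause was not tested.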
